A study of Mus musculus with 6 samples.

Results

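ATP-binding cassette (ABC) transporter genes were taken as all symbols of the deposited count table that name a member of subfamilies A to G by the pattern Abc, a subfamily letter and a number, Abca3 included. The pattern found 50 of the 23478 genes. RNA had been sequenced from alveolar type 2 (AT2) cells, purified by depletion of other cells from adult mice of mixed background, in 3 Abca3 cKO libraries and 3 control libraries. Both groups received tamoxifen, the usual inducer of a conditional Cre recombinase, before harvest. The labels can be read as dosing over 6 days or as harvest 6 days after dosing. The labels name neither the Cre driver, nor the exons removed, nor the alleles that the controls carry. Nor do they state whether each replicate is its own animal. Where replicates share an animal, their spread in the p-values is technical only. The comparison asks which members of the family differ between AT2 cells labelled Abca3 cKO and control AT2 cells.

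ABC proteins bind and hydrolyse ATP on a pair of conserved cassettes, and most use it to move a substrate across a membrane. Subfamily A moves lipids, subfamilies B and C hold drug exporters, mitochondrial transporters and channel regulators, subfamily D imports fatty acyl-CoA into peroxisomes, and subfamily G exports sterols and drugs. Subfamilies E and F have cassettes but no membrane domain and work on ribosomes. In AT2 cells ABCA3 sits in the membrane of the lamellar body, where it loads phospholipid for pulmonary surfactant, and inherited loss of it causes surfactant deficiency.

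The libraries held 23531330 to 26071229 counts. The 8 AT2 markers summed to 89544 to 101082 CPM in Abca3 cKO and 76125 to 90225 CPM in control, with 7 of 8 log2 fold changes positive. The negative one was that of Sftpc, at -0.36 (edgeR adjusted p = 0.479). On the deposited RPKM, which divides by transcript length, their sum was not higher in Abca3 cKO. It averaged 33158 ± 3945 in Abca3 cKO and 34011 ± 4308 in control (SD, n = 3 each). The 6 club cell markers were nearly as abundant, at 53068 to 86113 CPM in Abca3 cKO and 64578 to 82740 CPM in control, most of it Scgb1a1. The part of either marker list in the members' values was not tested. CPM is the count normalized to library size, which was scaled by the trimmed mean of M values (TMM). Markers of lymphocytes and neutrophils summed to at most 3.67 CPM in any library, with Nkg7 at 0 in all of them. Only control replicate 2 had Xist at a high level, 2345 CPM against 5.36 to 9.36 CPM elsewhere. It had no count of Ddx3y, which stood at 36.3 to 55.7 CPM elsewhere. By these sex-linked genes control replicate 2 differed in sex from the other libraries, and so came from another animal than they did. Sex was thus not balanced between the groups, and its part in the values was not tested.

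Of the 50 members, 36 passed the filter on low counts and were tested among 14477 genes with edgeR's quasi-likelihood test, Abca3 cKO over control. No member passed a Benjamini-Hochberg adjusted p of 0.05, where 0.380% of all genes tested did. DESeq2 also called 0 members, and 1.50% of the genes to which it gave an adjusted p. With no filter on low counts 0 members and 0.698% of genes were called, with a replicate block 0 members and 0.228%, and by limma on RPKM 0 members and 0.157%. At an unadjusted p under 0.05 edgeR had 5 of the 36, which is 13.9% of them, against 9.23% of all genes tested. Of the 5, Abcd2 and Abcd3 had higher levels in Abca3 cKO, as did 5.07% of all genes tested at that p, and Abca17, Abca1 and Abca5 had lower levels, as did 4.16%. The libraries of the groups did not overlap for 6 members, or 16.7%, against 14.1% of all genes tested. Abcd3 and Abcf2 lay above control in this way (7.34% of all genes tested) and Abca3, Abca17, Abcc1 and Abcc5 below (6.76%). The median log2 fold change of the 36 was 0.06, and 0.00 over all genes tested, with 20 positive and 16 negative. The median absolute log2 fold change was 0.18 for the members and 0.18 for all genes tested. The smallest adjusted p among the members was 0.267.

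**Figure D1:**
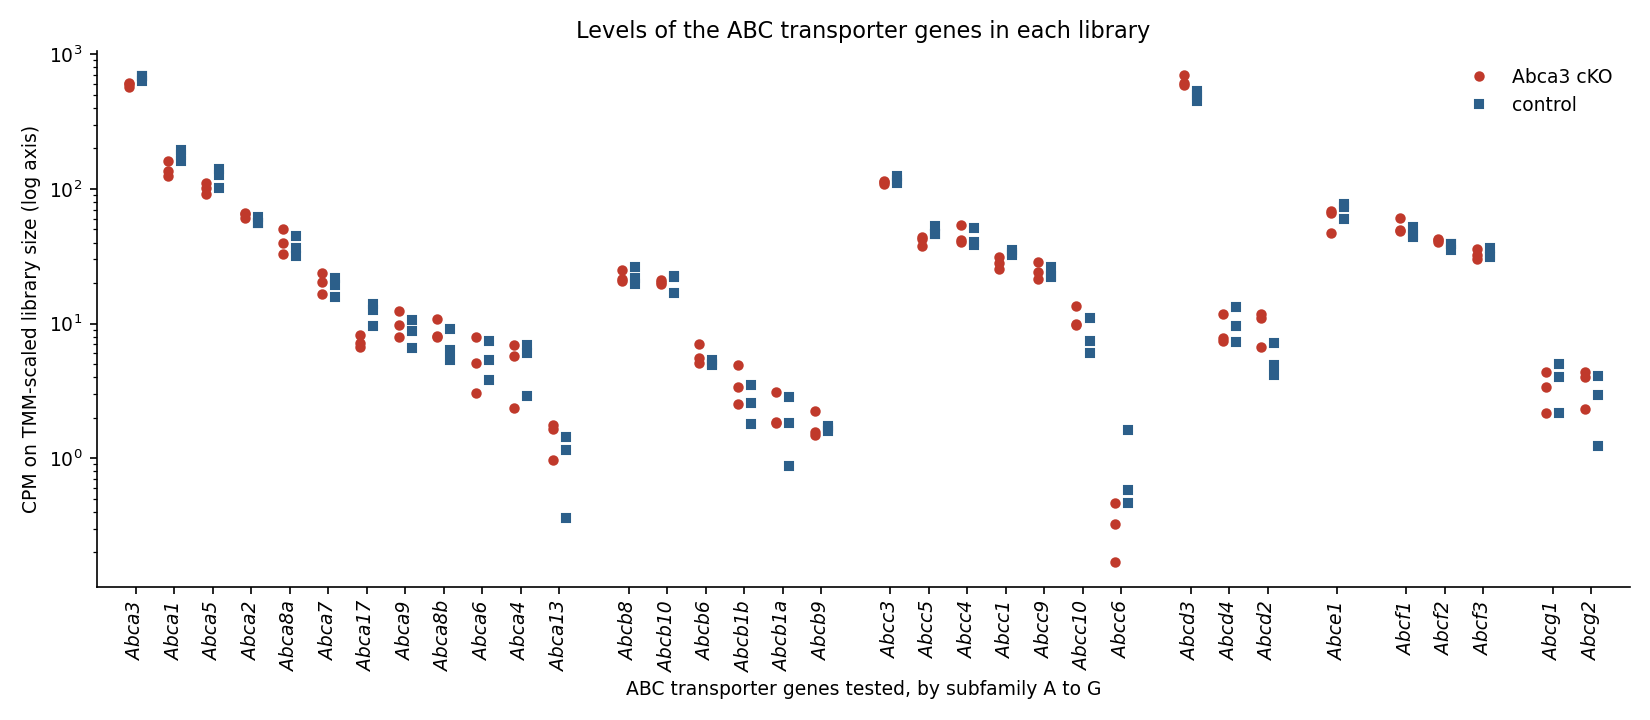
CPM of 34 of the 36 tested ABC transporter genes in each library on a log axis, ordered by level within subfamilies A to G, with Abca3 cKO libraries as red circles to the left and control libraries as blue squares to the right. CPM is not corrected for transcript length, so heights compare libraries within a gene; Abca3 and Abcd3 stand above every other member.

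Abca3, the lamellar body phospholipid transporter and the targeted gene (ENSMUSG00000024130.16, GRCm38 chromosome 17, 24351950 to 24410201, plus strand), stood at 571, 611 and 606 CPM in Abca3 cKO, against 635, 694 and 689 CPM in control. Every Abca3 cKO library lay below every control library, by a small margin. The log2 fold change was -0.17 (SE 0.109), which leaves 88.7% of the control level with a 95% interval of 75.5% to 104%, and the edgeR adjusted p was 0.696. With 3 libraries a side, a two-sided exact permutation test cannot go below p = 0.1, and that was its value here. On the deposited RPKM, which divides by transcript length, the difference was larger, at 55.9, 56.0 and 59.9 in Abca3 cKO against 66.5, 72.1 and 76.0 in control. The log2 fold change was then -0.32 on log2(RPKM + 0.1) (limma adjusted p = 0.468). The count is over the gene as a whole and leaves unknown what part of the transcript lacks the deleted exons. In bulk RNA, fewer cells of a type and less RNA per cell cannot be told apart. Exons of Abca3 share 914 bases with D330041H03Rik on the opposite strand, which held 0.338 to 1.64 CPM in Abca3 cKO and 0.541 to 1.31 CPM in control. Its deposited RPKM was as high as that of Abca3, at 65.6, 69.9 and 76.2 in Abca3 cKO and 60.3, 71.6 and 87.1 in control. The counts and the RPKM thus stand far apart for D330041H03Rik. How either treats the shared stretch is not known, and its part in the RPKM of Abca3 was not tested.

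Within the family, Abca3 took a smaller share of the counts in Abca3 cKO libraries and Abcd3, a peroxisomal importer, a larger one. Abca3 took 25.1%, 26.2% and 25.98% of all ABC transporter counts in Abca3 cKO, against 28.1%, 30.0% and 29.6% in control. The mean share was 25.8% ± 0.578 in Abca3 cKO and 29.2% ± 1.03 in control (SD, n = 3 each), with exact permutation p = 0.1, two-sided. Abcd3 took 26%, 26.1% and 30.0% in Abca3 cKO and 20.04%, 23.2% and 21.4% in control. The count of Abca3 divided by that of Abcd3, which needs no library scaling, was 0.967, 1.004 and 0.866 in Abca3 cKO and 1.40, 1.29 and 1.38 in control. The ratio was chosen after its values were seen and is given with no test. The family as a whole took nearly the same share of all counts in both groups, 0.227% to 0.231% in Abca3 cKO and 0.227% to 0.238% in control.

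**Figure D2:**
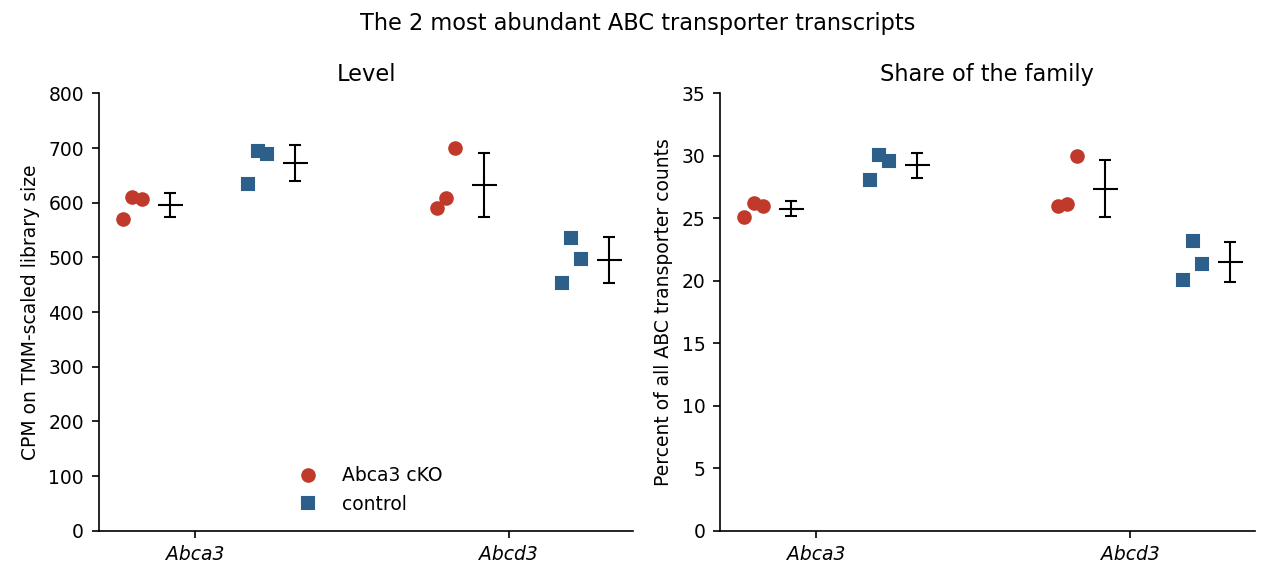
CPM of Abca3 and Abcd3 (left panel) and the percent of all ABC transporter counts that each took (right panel), with Abca3 cKO libraries as red circles, control libraries as blue squares, and the mean with its SD (n = 3) in black. For Abca3 the Abca3 cKO libraries lie below the control libraries and for Abcd3 above them, on both scales.

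Abca17 had the smallest p of the family and is the neighbour of Abca3 on the chromosome. It encodes a subfamily A protein known in the mouse mainly from testis and lies at GRCm38 chromosome 17, 24264259 to 24351068, on the minus strand. The pair points away from each other with 881 bases between the annotated genes, which makes them divergent neighbours. Abca17 had 8.19, 7.16 and 6.75 CPM in Abca3 cKO, against 9.675, 12.55 and 13.97 CPM in control. All Abca3 cKO libraries lay below all control libraries. The log2 fold change was -0.71 (SE 0.223, edgeR adjusted p = 0.267), or 61.0% of the control level with a 95% interval of 43.8% to 85.0%. The level rests on 167 to 194 counts in an Abca3 cKO library and 229 to 352 in a control library. On log2(RPKM + 1), a scale that compresses low genes, the log2 fold change was -0.22. The annotation shows no exon of another gene on those of Abca17.

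Promoter windows are shown for this divergent pair, and for Abca1, the sterol exporter with the next smallest p of subfamily A, as an example away from that locus. They run from 250 bases before to 50 bases after the RefSeq start (GRCm38.p6), each on its own gene's strand at chr17:24351773-24352072 (plus), chr17:24351010-24351309 (minus) and chr4:53159846-53160145 (minus). Capitals mark exact matches, on either strand, to the motifs searched.
Abca3: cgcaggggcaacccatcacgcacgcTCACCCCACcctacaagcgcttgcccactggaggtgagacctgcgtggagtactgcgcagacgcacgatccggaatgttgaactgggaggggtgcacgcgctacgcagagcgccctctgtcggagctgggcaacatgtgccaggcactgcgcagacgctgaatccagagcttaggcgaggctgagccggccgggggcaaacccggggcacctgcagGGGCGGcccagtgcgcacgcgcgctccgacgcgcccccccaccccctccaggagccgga
Abca17: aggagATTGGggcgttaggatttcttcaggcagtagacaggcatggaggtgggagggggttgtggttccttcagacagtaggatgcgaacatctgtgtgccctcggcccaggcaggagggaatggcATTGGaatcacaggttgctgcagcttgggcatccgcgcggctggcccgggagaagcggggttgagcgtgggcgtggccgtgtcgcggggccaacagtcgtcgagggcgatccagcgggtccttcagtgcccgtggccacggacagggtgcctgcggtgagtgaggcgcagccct
Abca1: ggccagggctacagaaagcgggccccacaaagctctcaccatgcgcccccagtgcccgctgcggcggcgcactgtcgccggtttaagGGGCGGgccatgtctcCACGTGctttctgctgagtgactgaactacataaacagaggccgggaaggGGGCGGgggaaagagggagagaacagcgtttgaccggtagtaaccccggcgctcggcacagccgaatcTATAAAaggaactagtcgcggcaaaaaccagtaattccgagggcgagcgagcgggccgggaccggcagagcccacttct

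The 10 motifs searched began with the core promoter elements, which are the GC box with the letters GGGCGG, the CCAAT box with the letters CCAAT and the TATA box with the letters TATAAA. Sites of known factor families were the E-box with the letters CACGTG, the cyclic AMP response element with the letters TGACGTCA, an NKX2 homeodomain site with the letters TCAAGTG, a C/EBP palindrome with the letters TTGCGCAA and a sterol regulatory element with the letters TCACCCCAC. The last were the nuclear receptor direct repeats DR1 and DR4. In the Abca3 window the sterol regulatory element letters begin 225 bases before the start and a GC box begins 9 bases before it. Those sterol element letters stood in 0.551% of all 32851 promoter windows and in 1 of 45 windows of the family, which covered 38 of the 50 members. The Abca17 window held the CCAAT letters on its other strand, at 245 and 124 bases before the start, a motif found in 37.4% of all windows. The Abca1 window held a TATA box, an E-box and a pair of GC boxes, found in 13.6%, 7.15% and 35.7% of all windows. The other 5 motifs had no match in these 3 windows, and stood in 3.06% (NKX2), 1.79% (cyclic AMP response element), 0.183% (C/EBP), 0.0396% (DR1) and 0.0152% (DR4) of all windows. No matches within these 3 windows overlapped. The windows of Abca3 and Abca17 were 69.7% and 64.7% G or C, and the median over all windows was 52.7%. Matches are letters only and show no binding.

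Subfamily A was evenly split: of its 12 tested members 6 had a positive and 6 a negative log2 fold change, Abca3 and Abca17 among the negative ones. Abca1, which exports cholesterol to apolipoprotein A-I, stood at 161, 137 and 124 CPM in Abca3 cKO, against 195, 161 and 178 CPM in control. The highest Abca3 cKO library just overlapped the lowest control library. Its log2 fold change was -0.34 (SE 0.124, edgeR adjusted p = 0.360). Abca5, a transporter of late endosomes and lysosomes, stood at 102, 110 and 91.9 CPM in Abca3 cKO, against 141, 102 and 126 CPM in control, and the groups overlapped. Its log2 fold change was -0.28 (SE 0.131, edgeR adjusted p = 0.541), and -0.16 on log2(RPKM + 1). With single libraries left out it ran from -0.40 (without control replicate 2) to -0.17 (without control replicate 1). Its unadjusted p was under 0.05 in 4 of the 13 alternative analyses.

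Further subfamily A genes at moderate levels had small differences. Abca2, a sterol and sphingolipid transporter of lysosomes, averaged 64.1 ± 2.95 CPM in Abca3 cKO and 57.8 ± 3.42 CPM in control (SD, n = 3 each). Abca7, a phospholipid transporter that also aids phagocytosis, averaged 20.3 ± 3.60 CPM in Abca3 cKO and 18.8 ± 3.05 CPM in control. The gene cluster Abca5, Abca6, Abca9, Abca8a and Abca8b runs along chromosome 11, and its members outside Abca5 had log2 fold changes of -0.04 (Abca6), 0.21 (Abca9), 0.13 (Abca8a) and 0.36 (Abca8b). None of these 4 had an edgeR adjusted p below 0.763. Abca8a and Abca8b are close copies, so reads could be split between them. These genes are known from mesenchymal tissue, and mesenchymal and pericyte markers summed to 1075 to 1620 CPM in Abca3 cKO and 785 to 1047 CPM in control. Of those 9 markers 8 had a positive log2 fold change and none was at 0, and their part in these values was not tested. Abca4, the retinal transporter of photoreceptors, averaged 5.02 ± 2.37 CPM in Abca3 cKO and 5.28 ± 2.12 CPM in control. Abca13, a very large member, averaged 1.46 ± 0.429 CPM in Abca3 cKO and 0.984 ± 0.560 CPM in control.

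Subfamily D, the peroxisomal importers, held both members with a positive log2 fold change and an unadjusted p under 0.05. Abcd3 (PMP70, ENSMUSG00000028127.10, GRCm38 chromosome 3, 121758774 to 121815302, minus strand) is known to import branched-chain and dicarboxylic acyl-CoA and bile acid precursors. It stood at 590.5, 609 and 700.2 CPM in Abca3 cKO, against 453, 536.5 and 497 CPM in control. All Abca3 cKO libraries lay above all control libraries. The log2 fold change was 0.35 (SE 0.119, edgeR adjusted p = 0.312), or 128% of the control level with a 95% interval of 107% to 152%. Over the alternative analyses its adjusted p ran from 0.145 to 0.693, and its direction was the same in all 13. An unadjusted p under 0.05 was missed without Abca3 cKO replicate 3 or control replicate 1.

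Length-corrected levels place Abca3 and Abcd3 at the head of the family. By deposited RPKM, Abcd3 averaged 66.98 ± 9.22 and Abca3 57.2 ± 2.31 in Abca3 cKO, while in control Abcd3 averaged 50.6 ± 6.51 and Abca3 71.5 ± 4.79 (SD, n = 3 each). The order of the pair thus differed between the groups on RPKM, in every library. It did not on CPM divided by the length of all annotated exons in kilobases, where Abcd3 had 96.0 and Abca3 63.6 in Abca3 cKO, and Abcd3 75.2 and Abca3 71.7 in control. Which of them leads in control therefore depends on the transcript length used. The third gene by RPKM, Abcc3, was at 14.4 ± 0.558 in Abca3 cKO and 15.4 ± 0.963 in control.

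Abcd2, which imports very long chain fatty acyl-CoA, had 11.1, 6.70 and 11.8 CPM in Abca3 cKO, against 4.90, 4.17 and 7.18 CPM in control. Abca3 cKO replicate 2 lay below the highest control library. The log2 fold change was 0.86 (SE 0.290, edgeR adjusted p = 0.317), a ratio with 95% bounds of 118% and 279%. On log2(RPKM + 1) it was 0.29. Abcd4, which works with lysosomal cobalamin and not in peroxisomes, averaged 8.99 ± 2.40 CPM in Abca3 cKO and 10.03 ± 2.96 CPM in control. Subfamily D summed to 669, 692 and 790 CPM in Abca3 cKO and 526, 597 and 583 CPM in control, most of it Abcd3.

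**Figure D3:**
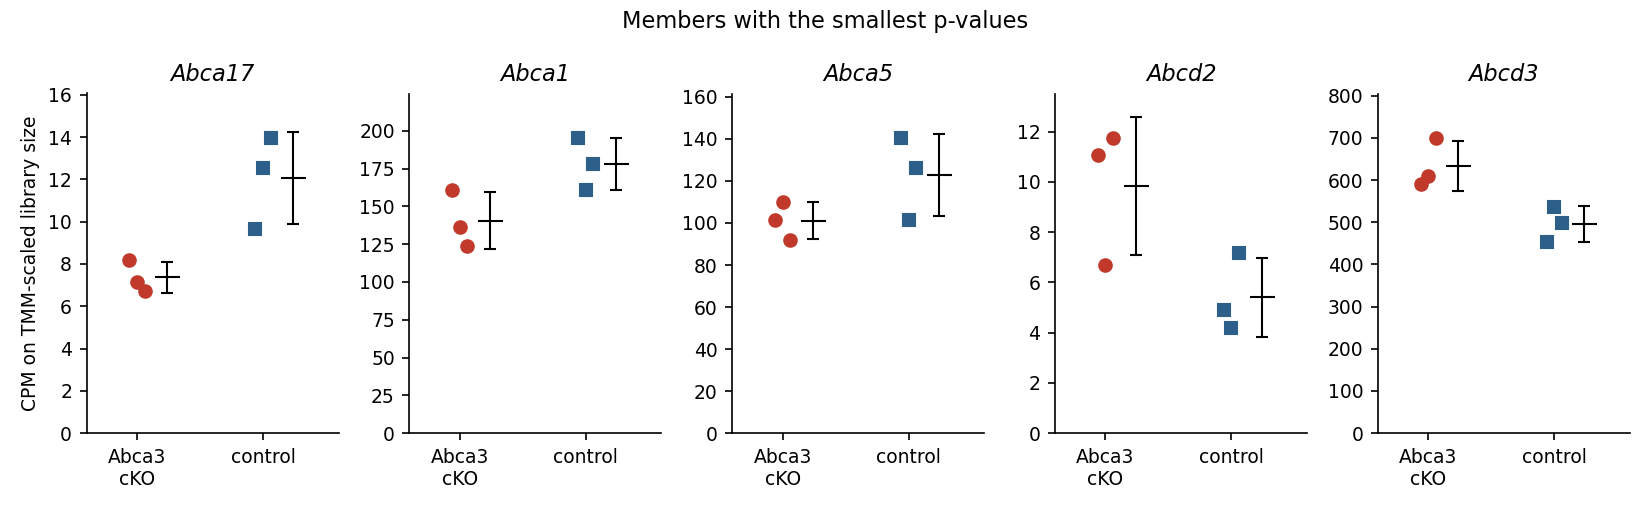
CPM in each library of the 5 ABC transporter genes with an unadjusted edgeR p under 0.05, with Abca3 cKO libraries as red circles, control libraries as blue squares, and the mean with its SD (n = 3) in black; each axis starts at 0. The groups are apart for Abca17 (lower in Abca3 cKO) and Abcd3 (higher) and overlap for Abca1, Abca5 and Abcd2.

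Partner genes of the peroxisome were described beside subfamily D. All partner lists were chosen with earlier results of these data known, so shares within them are descriptive only. Of 21 tested, 1 rose with edgeR, which called 0.380% of all genes tested, and none fell. DESeq2 called the same 1, and 1.50% of the genes to which it gave an adjusted p. At an unadjusted p under 0.05 there were 2 higher and 1 lower, or 14.3% of the list against 9.23% of all genes tested. The median log2 fold change was 0.11, against 0.00 over all genes tested. The riser was Scp2, a thiolase and sterol carrier that acts on branched-chain substrates, at 320.0, 319.2 and 306.5 CPM in Abca3 cKO against 184, 195 and 218 CPM in control (log2 fold change 0.66, SE 0.110, adjusted p = 0.0163). It lost the call without Abca3 cKO replicate 1, Abca3 cKO replicate 2 or control replicate 1. The call was also lost on RPKM and with a replicate block, and the adjusted p was at most 0.126. Catalase (Cat) stood at 2199 ± 188 CPM in Abca3 cKO and 1766 ± 130 CPM in control, with edgeR adjusted p = 0.392.

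Subfamily B, with transporters of mitochondria and the plasma membrane, showed small differences. Its 7 tested members had log2 fold changes from -0.02 to 0.46, none with p under 0.05. Abcb8, a mitochondrial inner membrane transporter, had 21.4, 25.0 and 20.7 CPM in Abca3 cKO, against 21.7, 19.65 and 26.5 CPM in control (log2 fold change -0.02, 95% interval -0.38 to 0.35). Abcb10, which supports haem synthesis, averaged 20.4 ± 0.580 CPM in Abca3 cKO and 20.5 ± 3.11 CPM in control. Abcb6, a porphyrin transporter, averaged 5.92 ± 1.0 CPM in Abca3 cKO and 5.10 ± 0.266 CPM in control, and shares 2932 exon bases with a predicted gene on its own strand. The drug exporters Abcb1a and Abcb1b, near copies of each other, had 1.81 to 3.11 and 2.53 to 4.94 CPM in Abca3 cKO and 0.873 to 2.86 and 1.785 to 3.51 CPM in control. Abcb9, a lysosomal peptide transporter, stayed between 1.48 and 2.24 CPM in Abca3 cKO and between 1.61 and 1.74 CPM in control. None of 16 tested haem and iron-sulphur partners was called; the smallest edgeR adjusted p was that of the mitochondrial iron importer Slc25a28, 0.391, and 2 of the 16 had an unadjusted p under 0.05.

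Subfamily C, the multidrug resistance proteins and sulphonylurea receptors, was mixed in direction, with 3 of 7 tested log2 fold changes positive. Abcc3, which exports conjugated organic anions, had 108, 114 and 113 CPM in Abca3 cKO, against 111, 126 and 116.5 CPM in control, and the groups overlapped. Its log2 fold change was -0.08 (SE 0.106, adjusted p = 0.899), -0.12 without control replicate 1 and -0.03 without control replicate 2. Abcc5, an exporter of glutamate conjugates and nucleotide analogues, had 37.7, 44.0 and 42.3 CPM in Abca3 cKO, against 53.1, 46.6 and 46.3 CPM in control. Its groups did not overlap, and the log2 fold change was -0.23 (SE 0.133, adjusted p = 0.653). Abcc1, which exports glutathione conjugates and leukotriene C4, showed the same separation, at 31.2, 28.4 and 25.3 CPM in Abca3 cKO against 35.2, 32.5 and 33.2 CPM in control. On the log2 scale it differed by -0.25 (SE 0.147, adjusted p = 0.667).

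The remaining members of subfamily C included a prostaglandin exporter and a channel subunit. Abcc4, which exports prostaglandins and cyclic nucleotides, averaged 45.3 ± 7.64 CPM in Abca3 cKO and 43.4 ± 6.97 CPM in control. Abcc9, the regulatory subunit of KATP channels known from pericytes and smooth muscle, averaged 24.8 ± 3.72 CPM in Abca3 cKO and 23.7 ± 2.28 CPM in control. Its pore partner Kcnj8 averaged 5.36 ± 0.764 CPM in Abca3 cKO and 5.85 ± 2.03 CPM in control. Abcc10 averaged 11.1 ± 2.12 CPM in Abca3 cKO and 8.16 ± 2.54 CPM in control (log2 fold change 0.44, adjusted p = 0.660). The widest fold change of the family belonged to Abcc6, a liver and kidney transporter that releases ATP, at -1.46 with a 95% interval of -3.22 to 0.30. It rested on 4, 12 and 8 counts in Abca3 cKO, against 11, 15 and 41 in control. Of 14 tested glutathione and conjugation partners none was called by edgeR, and 9 had a negative log2 fold change. DESeq2 called 1, and 1.50% of the genes to which it gave an adjusted p. That gene was Gclm, the modifier subunit of glutamate-cysteine ligase. Gclm had 19.5, 18.0 and 20.3 CPM in Abca3 cKO against 30.8, 29.6 and 27.4 CPM in control (edgeR adjusted p = 0.132).

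**Figure D4:**
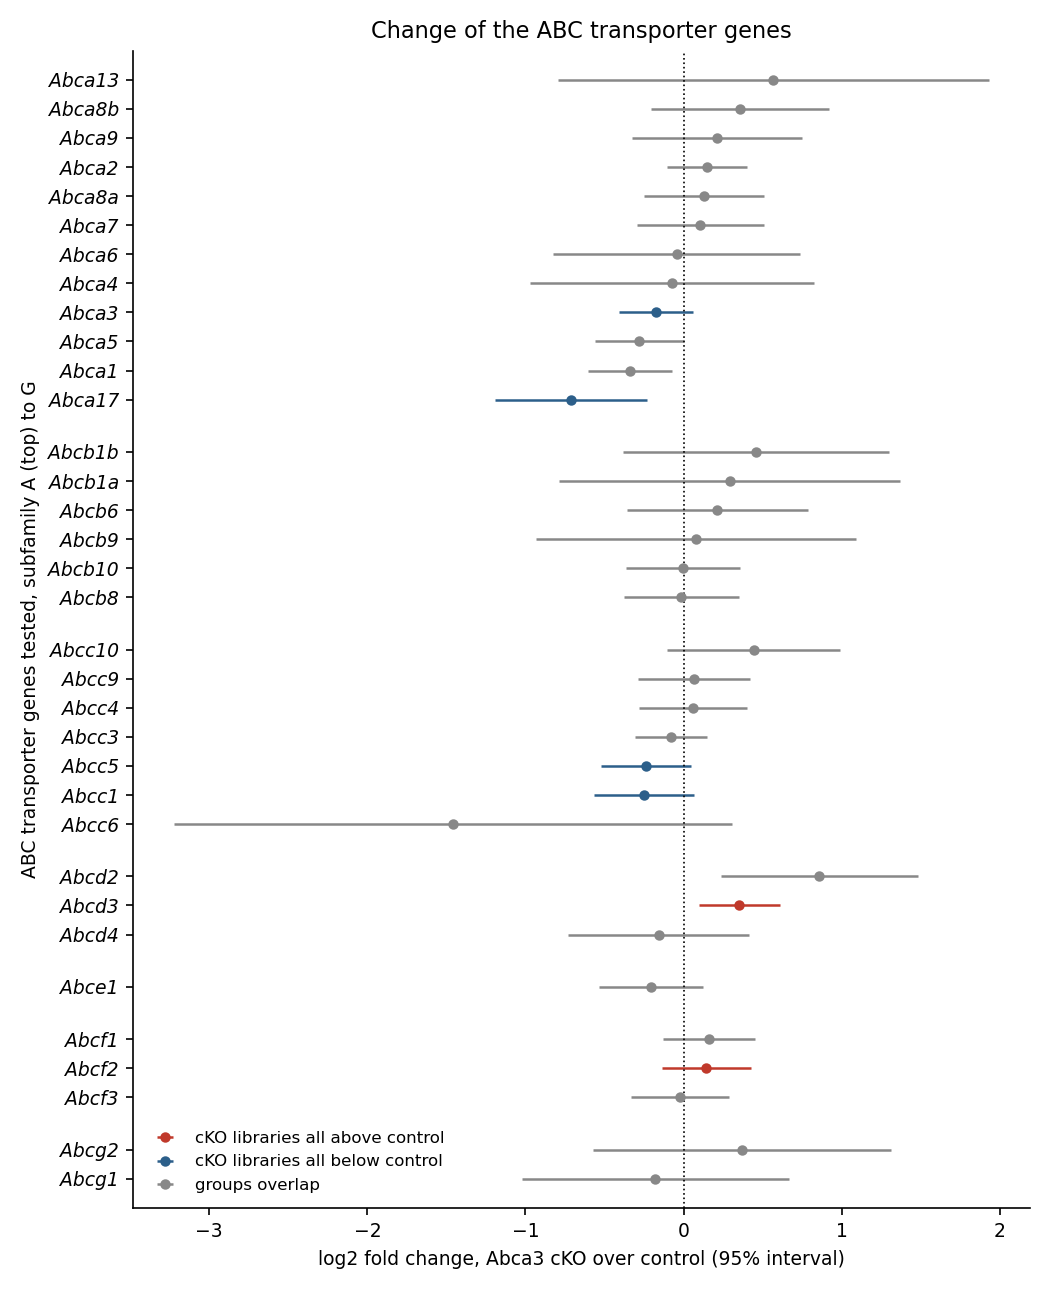
Log2 fold change of 34 of the 36 tested ABC transporter genes, Abca3 cKO over control, with its 95% interval from edgeR, grouped from subfamily A at the top to G at the bottom. Red marks genes with all Abca3 cKO libraries above control (Abcd3 and Abcf2), blue those with all below (Abca3, Abca17, Abcc1 and Abcc5), and grey those whose groups overlap.

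Subfamilies E and F, which act on ribosomes, showed no call. Abce1, which splits ribosomes after termination, had 68.0, 66.7 and 47.4 CPM in Abca3 cKO, against 73.0, 77.3 and 59.7 CPM in control. On the log2 scale it differed by -0.21 (SE 0.154, adjusted p = 0.769), and -0.06 without Abca3 cKO replicate 3, -0.13 without control replicate 2 and -0.31 without control replicate 3. Abcf1, which helps translation initiation through eIF2, had 49.4, 60.4 and 48.9 CPM in Abca3 cKO, against 44.3, 45.4 and 52.3 CPM in control (log2 fold change 0.16, adjusted p = 0.807). Without Abca3 cKO replicate 2, its highest library, the value was 0.05. Abcf2 had 42.8, 42.0 and 40.55 CPM in Abca3 cKO, against 35.3, 39.2 and 39.0 CPM in control. All its Abca3 cKO libraries lay above all control libraries, and the log2 fold change was 0.14 (SE 0.131, adjusted p = 0.826). Abcf3 averaged 32.8 ± 2.65 CPM in Abca3 cKO and 33.3 ± 2.82 CPM in control. No gene of 16 tested ribosome recycling and initiation partners was called by edgeR, 1 had an unadjusted p under 0.05, and their median log2 fold change was 0.06. That gene was Nemf, which recognises stalled ribosomal subunits, at 152 ± 14.3 CPM in Abca3 cKO and 119 ± 8.37 CPM in control (adjusted p = 0.283).

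Subfamily G was nearly silent in these cells, with a summed level of 7.12 to 7.84 CPM in Abca3 cKO and 7.02 to 8.28 CPM in control over its 6 members. Abcg1, the sterol exporter of macrophages and AT2 cells, had 2.15, 4.40 and 3.35 CPM in Abca3 cKO, against 2.15, 4.02 and 5.04 CPM in control. Its log2 fold change was -0.18 (SE 0.395, adjusted p = 0.949), positive without Abca3 cKO replicate 1 or control replicate 3. It was -0.45 with control replicate 1 left out, and -0.44 with Abca3 cKO replicate 2 left out. Abcg2, a drug and urate exporter, had 4.35, 2.34 and 3.999 CPM in Abca3 cKO, against 4.10, 2.93 and 1.23 CPM in control (log2 fold change 0.37, adjusted p = 0.882). That value ran from 0.02 without control replicate 3 to 0.77 without control replicate 1, with 0.20 and 0.60 without Abca3 cKO replicates 1 and 2. Macrophage markers summed to 43.9 to 62.5 CPM over 11 genes in Abca3 cKO and 67.8 to 78.8 CPM in control, most of it Csf1r, with C1qa at 0 in all libraries and Marco at 0 in the Abca3 cKO libraries. Their part in the values of Abcg1 and Abca1 was not tested.

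Of 16 tested genes that act with the sterol exporters, edgeR called 2 higher, Apoc1 and Soat1, and none lower (0.380% of all genes tested were called), and the median log2 fold change was 0.06. At an unadjusted p under 0.05 there were 4 higher and none lower, or 25.0% of the list against 9.23% of all genes tested. As this list was chosen with earlier results of these data known, the share is descriptive only. DESeq2 called 3, and 1.50% of the genes to which it gave an adjusted p. The third was Npc2, a lysosomal cholesterol carrier, at 1965 ± 273 CPM in Abca3 cKO and 1397 ± 53.8 CPM in control (edgeR adjusted p = 0.134). Apoc1, an apolipoprotein, had 91.7, 111.5 and 101 CPM in Abca3 cKO, against 36.0, 38.3 and 45.7 CPM in control (log2 fold change 1.34, SE 0.133, edgeR adjusted p = 0.000307). Soat1, which esterifies cholesterol for storage, had 824, 980 and 764 CPM in Abca3 cKO, against 520, 458 and 516 CPM in control (log2 fold change 0.78, SE 0.124, adjusted p = 0.0119). Its call was lost without Abca3 cKO replicate 2 or control replicate 1, with adjusted p up to 0.0806. Nr1h2 and Nr1h3, the LXR receptors that drive Abca1 and Abcg1, had log2 fold changes of 0.26 (adjusted p = 0.692) and 0.21 (adjusted p = 0.869). Srebf1 and Srebf2, which drive lipid and sterol synthesis, had -0.08 (adjusted p = 0.900) and 0.21 (adjusted p = 0.665).

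Among 23 tested partners of ABCA3 in the lamellar body, edgeR called 1 higher and none lower (0.380% of all genes tested were called), with a median log2 fold change of 0.13 and 16 positive. At an unadjusted p under 0.05 there were 8 higher and 1 lower (Sftpc), or 39.1% of the list against 9.23% of all genes tested. For 9 of the 23, all Abca3 cKO libraries lay above control (7.34% of all genes tested). The list was chosen with earlier results of these data known, so these shares are descriptive only. Summed deposited RPKM of the list went the other way, at 27390 ± 3272 in Abca3 cKO and 30427 ± 4342 in control (SD, n = 3 each). Sftpa1, Sftpb, Sftpc, Sftpd, Slc34a2, Lamp3 and Napsa are also among the AT2 markers above, so this list and those markers are not separate results. DESeq2 called 4, which were Napsa, Atp8a1, Lamp3 and Slc34a2, and 1.50% of the genes to which it gave an adjusted p. Napsa, the aspartic protease that processes pro-surfactant protein B, had 499.8, 499.8 and 567 CPM in Abca3 cKO, against 298, 357 and 335 CPM in control (log2 fold change 0.66, SE 0.117, edgeR adjusted p = 0.0265). The call held in 1 of the 6 fits that left out a library, the one without control replicate 2. It was lost on RPKM and with a replicate block. Atp8a1, a phospholipid flippase, stood at 1239 ± 56.9 CPM in Abca3 cKO and 959 ± 47.2 CPM in control (edgeR adjusted p = 0.235). For Nkx2-1, the homeodomain factor that activates Abca3, the log2 fold change came to 0.12 (edgeR adjusted p = 0.866). Beside these, markers of alveolar type 1 cells summed to 2369 to 3312 CPM in Abca3 cKO and 3032 to 4010 CPM in control, with 9 of 9 log2 fold changes negative and none of the 9 at 0.

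ABC proteins known under other names lie outside the pattern and showed no call. Cftr, the chloride channel also known as subfamily C member 7, had 165, 185 and 187 CPM in Abca3 cKO, against 162, 335 and 145 CPM in control. Control replicate 2 alone stood high. The edgeR log2 fold change of Cftr was -0.26 (SE 0.336, adjusted p = 0.898). Tap1 and Tap2, which load peptides onto MHC class I, averaged 9.92 ± 0.932 and 3.26 ± 0.552 CPM in Abca3 cKO and 9.49 ± 2.47 and 4.47 ± 0.273 CPM in control.

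The family without Abca3, summed over 49 members, stood at 1700.2, 1718 and 1728 CPM in Abca3 cKO, against 1625, 1616 and 1639 CPM in control. The groups did not overlap, the difference of means was 88.7 CPM, and the exact two-sided permutation p was 0.1. With Abcd3 left out too, the groups overlapped: the sums were 1109.7, 1109 and 1027 CPM in Abca3 cKO and 1172, 1079 and 1141 CPM in control.

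The 14 members that did not pass the filter never reached more than 28 counts in a library. Abca16 and Abcb5 had 0 counts in all 6 libraries, which allows up to 0.127 CPM in the shallowest library by counting error alone, taking 3 counts as the limit. Abcg5, which with Abcg8 exports plant sterols in liver and gut, had 9, 6 and 4 counts in Abca3 cKO and 26, 28 and 9 in control. Abcg8 had 8, 2 and 4 counts in Abca3 cKO and 15, 0 and 7 in control. Abcc8, the pancreatic sulphonylurea receptor, had 24, 8 and 2 counts in Abca3 cKO and 0, 5 and 4 in control. Abca12, the lipid transporter of skin, had 14, 10 and 0 counts in Abca3 cKO and 14, 1 and 1 in control. Abca14, Abca15, Abcb4, Abcb11, Abcc2, Abcc12, Abcg3 and Abcg4 made up the rest, among them the bile salt exporter Abcb11 with at most 6 counts in a library. With no filter on low counts edgeR gave none of the 12 of these members that had any count an adjusted p under 0.05.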

How the data were processed

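Gene-level counts were used as the authors deposited them, unnormalized, beside the authors' RPKM. Per the labels' protocols, total RNA was amplified with the NuGEN Ovation system and made into Nextera XT libraries, so counts are of amplified material and not of single molecules. Upstream tools, per the submitters' processing notes, include TopHat2 2.0.8, Bowtie2 2.1.0, DESeq and Cufflinks 2.0.2, with GRCm38 as the build. How reads were counted, on which strand and against which annotation is not given in the sources used here, so reads of overlapping genes and close copies cannot be told apart. A sheet of symbols without values was not used.

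The test was that of edgeR 4.0.16 (R 4.3.3): filterByExpr, TMM, robust quasi-likelihood fit, F test with group as the only term, and Benjamini-Hochberg adjustment over 14477 genes. SE is the log2 fold change divided by the square root of F. Replicates differed beyond sampling noise (chi-square per degree of freedom 32.1 to 54.8). DESeq2 1.42.0, other scalings, no filter, limma 3.58.1 on RPKM, a replicate block and leaving out each library were alternatives. Single values had exact permutation tests (SciPy 1.17.1). Positions and exon overlaps came from GENCODE M21 (GRCm38), which held all 50 members. Promoters came from RefSeq.

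The members and lists were chosen with earlier results of these data known. Full values are given for Abca3, the 2 members of each subfamily with the highest mean CPM, and members with an unadjusted p under 0.05; in partner lists, for called genes and some of the 3 with the smallest p. Partners outside that rule (Nr1h2, Nr1h3, Srebf1, Srebf2, Nkx2-1, Kcnj8) were named for their role. Single values of 2 tested members and of some listed genes are not reported here; all remain in the fits, counts and sums.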

Additional observations from a re-analysis of the deposited data

How the results depend on the processing

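The count of members called was 0 under all 13 alternatives. Abca3 stayed lower under all of them (log2 fold change -0.32 to -0.15, adjusted p 0.468 to 0.883), and its share of the family's counts was lower in Abca3 cKO by 3.05 to 4.03 percentage points without single libraries and by 6.07 on RPKM. The median over members ran from 0.02 to 0.08. The sum without Abca3 differed by 82.4 to 96.1 CPM without single libraries, by 63.3 CPM on library totals and by 16.2 RPKM. Of the 14 members given in full, 12 kept their direction under all alternatives. The others crossed 0 when single libraries were left out, with log2 fold changes from -0.11 to 0.11 for Abcb8 and from -0.45 to 0.094 for Abcg1. Both were above 0 without Abca3 cKO replicate 1 or control replicate 3, and Abcb8 also without Abca3 cKO replicate 3.

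All genes called numbered 55. They were 132 with no filter, 233 with DESeq2, 22 on RPKM with either pseudocount, and 21 to 50 without single libraries (lowest without control replicate 1). Partner genes called numbered 4, and 9 with DESeq2, 2 on RPKM with either pseudocount and 1 to 4 without single libraries. The causes were not tested. The labels do not say that replicate numbers pair the samples. Same-numbered libraries had deviations correlated at 0.076, -0.030 and -0.027, and not every library correlated best with its own number. With 3 libraries a group these correlations cannot settle whether the numbers pair samples. With a replicate block 33 genes, 2 partner genes and 0 members were called, with Scp2 and Napsa no longer among them, the median over members was 0.06, Abca3 had a log2 fold change of -0.17 and the named members kept their direction. Low members had wide intervals: for Abcg1, with 51 to 113 counts in an Abca3 cKO library and 51 to 127 in a control library, the 95% interval ran from 49.2% to 159% of the control level.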
